A study of Mus musculus with 24 samples.

Results

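Astrocytes of the mouse hippocampus were examined as the nuclei that the authors' clustering labelled NN-Astro. The label held 4372 of the 30880 nuclei profiled by single-nucleus RNA sequencing (snRNA-seq) and 199 of the 27206 nuclei profiled by single-nucleus ATAC sequencing (snATAC-seq, which reads open chromatin). Astrocytes are glial cells that take up glutamate and GABA around synapses, buffer potassium and water, supply lactate and lipids to neurons and contact blood vessels. They are coupled to each other by gap junctions, and many keep genes of the radial glia from which they arise. In injury or disease they become reactive and raise Gfap and immune genes.

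Nuclei came from the ventral hippocampus of adult males of 2 inbred strains aged 10 to 16 weeks, C57BL/6J (B6) and DBA/2J (D2, labelled DBA). Tissue of about 2 animals was pooled for each replicate, and there were 2 replicates per strain in each assay, with no treatment. For snRNA-seq, sorting on the neuronal protein NeuN set a mix of 75% neuronal and 25% non-neuronal nuclei, while the snATAC-seq nuclei were sorted without NeuN. The study asked how strain sequence variants bear on DNA methylation and transcription, and 16 methylation samples among the 24 of the series were not analysed here. Libraries carry the numbers 2 and 3 in the count tables of both strains, and are named that way below.

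In snRNA-seq the NN-Astro nuclei numbered 1124 and 973 in B6 libraries 2 and 3 and 1196 and 1079 in D2 libraries 2 and 3. They made up 12.9%, 12.4%, 14.9% and 17.1% of the nuclei of those libraries, with exact 95% binomial intervals of 12.2 to 13.6, 11.7 to 13.1, 14.2 to 15.7 and 16.2 to 18, which cover counting error only. The NeuN sort can set these shares, so they were not tested. The summed counts were 3109079 and 3165829 in B6 and 3559331 and 3755687 in D2, or 2766 to 3481 per nucleus. In snATAC-seq only 33 to 65 nuclei per library carried the label, with 350988 and 486069 counts in B6 and 650602 and 748227 in D2, so accessibility was measured far less precisely. Across 12236 symbols the log2 CPM, the counts per 1000000 of a library's total, correlated at 0.981 between the B6 libraries, at 0.984 between the D2 libraries and at 0.921 to 0.928 across strains.

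The markers that name the label were high in every NN-Astro library. Aqp4, the water channel of astrocyte endfeet, reached 280 and 238 CPM in B6 and 247 and 310 CPM in D2, against 30.2 CPM in NN-OPC, the highest of the 16 other snRNA-seq labels. For Gja1, which encodes the gap junction protein connexin 43, the values were 542 and 405 CPM in B6 and 473 and 517 CPM in D2, against 157 CPM in NN-VLMC. Slc1a3, a glutamate transporter, was at 2151 and 2064 CPM in B6 and at 2057 and 2170 CPM in D2, with 751 CPM in NN-VLMC. The strains overlapped for all 3 markers, and none passed the strain test described below. The log2 fold changes were 0.20 for Aqp4, 0.15 for Gja1 and 0.09 for Slc1a3. Without B6 library 2, however, Gja1 and Aqp4 passed (0.40 and 0.33, edgeR adjusted p = 0.000623 and 0.0157), while without B6 library 3 Gja1 was at -0.05. Of a list of 30 astrocyte markers in wide use, 25 were higher in every NN-Astro library than in every other label, with a median log2 ratio of 2.32 to the highest other label, against -0.73 over the 7245 symbols of at least 20 CPM. Among the other 5 were S100b, which was higher in NN-ODC, Kcnj10, which overlapped NN-ODC, Gjb6, which was higher in NN-VLMC, and Cst3, which was higher in NN-MGC.

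To find what else set the label apart, the mean CPM of each symbol over the 4 NN-Astro libraries was compared with the highest CPM of any other label, after adding 1 CPM to both. Genes of at least 20 CPM with a log2 ratio of at least 2 are called identity genes here. The nuclei were clustered on these same transcripts and each other label was a single sum over all libraries, so the contrast is a description with no test. There were 138 identity genes among the 7245 symbols counted in both strains at that level (1.90%), of which 100 were protein coding, 34 had another gene type and 4 had no single entry in the GENCODE vM21 annotation. In 135 of them each NN-Astro library was above every other label, and in 109 the lowest library was at least 4 times the highest other label. The 3 genes with a library that was not above every other label were Etnppl, Gm12239 and Gm32569, which met the limit through their B6 libraries. Just inside the limit lay Gm7967, Prex2 and Abhd3 (log2 ratios of 2.03, 2.01 and 2.00), and just outside it Ptch1, D030047H15Rik and Arhgef19 (2.00, 2.00 and 1.99, all under the limit before rounding).

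The identity genes drew 6.0% and 5.89% of all counts in the B6 NN-Astro libraries and 5.41% and 5.44% in the D2 libraries. In the other labels they drew between 0.145% (Exc-CA1-Fras1) and 0.499% (NN-VLMC). The highest other label was NN-VLMC for 55 of the 138 genes, NN-OPC for 23 and CR-CR for 23, and an Exc or Inh neuron label for most of the rest. Without NN-VLMC among the other labels the number of identity genes was 201, and without NN-VLMC and CR-CR 216.

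**Figure D1:**
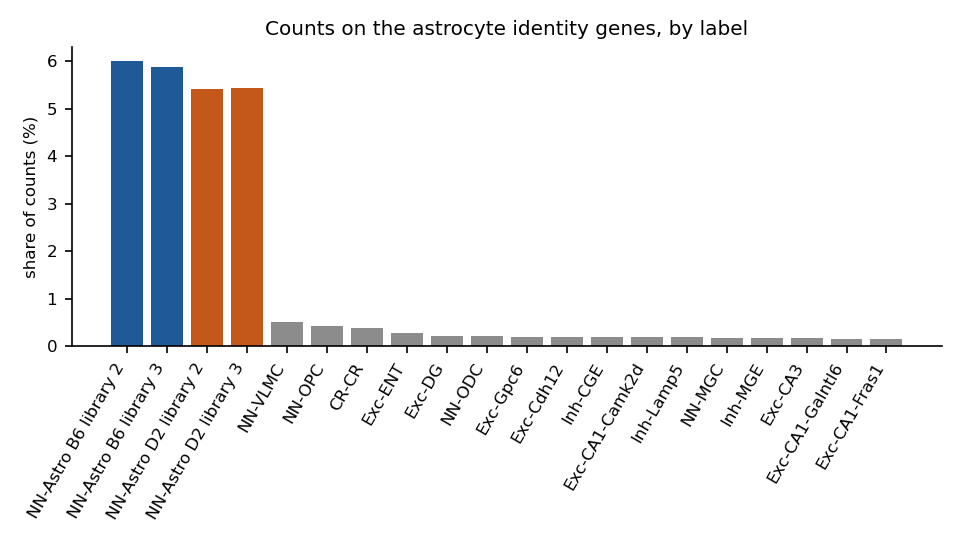
Share of all snRNA-seq counts that fell on the 138 identity genes, in percent (bars from 0), for each NN-Astro library and for each other label summed over its libraries. The 4 NN-Astro bars lie between 5.41% and 6.0%, and no other label exceeds 0.499%. The genes were chosen by this contrast.

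The highest ratio belonged to Grin2c, which encodes an NMDA receptor subunit. Its levels were 232 and 220 CPM in B6 and 202 and 173 CPM in D2, against 9.31 CPM in NN-VLMC (log2 ratio 4.33). Wdr17, a gene of the WD repeat family, was at 17426 and 19012 CPM in B6 and at 14201 and 13360 CPM in D2, while NN-VLMC held 849 CPM (log2 ratio 4.23). For Nwd1, which encodes a NACHT and WD repeat protein, the libraries lay between 389 and 489 CPM and NN-OPC at 22.2 CPM (log2 ratio 4.21). The lowest library was 15.7 times the next label or more for these 3 genes.

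Enzymes and transporters were among the first 20 genes. Phkg1, a catalytic subunit of the phosphorylase kinase that starts glycogen breakdown, was at 429 to 560 CPM against 28.6 CPM in NN-VLMC (log2 ratio 4.11). Acsbg1, a bubblegum-type acyl-CoA synthetase, was at 256 to 294 CPM against 15.5 CPM (log2 ratio 4.05). The zinc transporter gene Slc39a12 was at 427 to 481 CPM against 27.9 CPM in NN-MGC (log2 ratio 3.96). Plcd4, a phospholipase C, and Atp13a4, a P-type ATPase, had log2 ratios of 3.76 and 3.70. Etnppl, which encodes the enzyme that breaks down phosphoethanolamine, was among the 20 highest ratios through its B6 libraries only, with 130 and 145 CPM in B6 but 4.78 and 2.66 CPM in D2, and 3.77 CPM in Exc-Cdh12 (log2 ratio 3.91).

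Receptors and a regulator of transcription were also among the first 20. Ntsr2, a neurotensin receptor, was at 283 to 302 CPM against 20.5 CPM in NN-VLMC (log2 ratio 3.77), and Fgfr3, a fibroblast growth factor receptor, at 266 to 324 CPM against 21.1 CPM (log2 ratio 3.73). Prdm16, a zinc finger regulator also known from neural stem cells, was at 230 to 298 CPM against 18 CPM (log2 ratio 3.85). The other members of the first 20 were Ccdc190, C030018K13Rik and 6 genes known by Gm numbers, Gm6145, Gm28411, Gm35552, Gm13110, Gm31356 and Gm973, with log2 ratios of 3.69 to 4.22. Gm28411 lies within Gm973 on the opposite strand. The sources do not state whether counting used strand, so reads of such a pair cannot be told apart, and 75 of the 138 identity genes overlap a gene on the opposite strand.

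**Figure D2:**
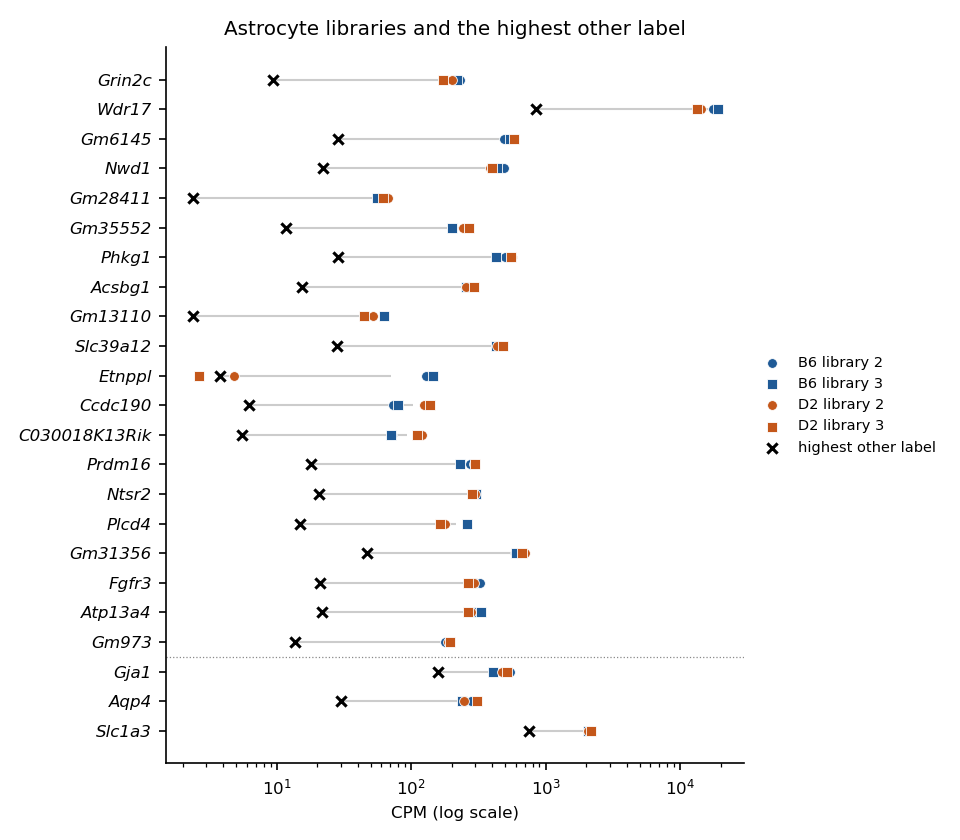
CPM on a log axis for the 20 identity genes with the highest log2 ratio and, under the dotted line, the 3 markers that name the label. Circles and squares are single NN-Astro libraries (B6 blue, D2 orange), crosses the highest other label, and grey lines join the cross to the mean of the 4 libraries. The crosses lie left of all 4 libraries in every row except Etnppl, whose D2 libraries lie at 4.78 and 2.66 CPM beside a cross at 3.77 CPM.

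Lists of genes for known astrocyte functions differed in how many of their members were identity genes. Over all symbols of at least 20 CPM the share was 1.90%, and in lists this short 1 gene moves a share far. Among transporters and enzymes of glutamate and GABA 5 of 12 members of at least 20 CPM qualified (41.7%). They were the glutamate transporter gene Slc1a2, the GABA transporter gene Slc6a11, Slc7a10, Glud1 and Gldc. Slc1a2 was at 7364 and 6277 CPM in B6 and at 5967 and 5938 CPM in D2 against 636 CPM in Exc-ENT (log2 ratio 3.33). For potassium, water and pH the number was 3 of 16 (18.8%, Aqp4, Mlc1 and Ttyh1). For glucose and lactate it was 3 of 11 (27.3%, Aldoc, Ppp1r3c and Ppp1r3g), and for lipids 5 of 22 (22.7%, Clu, Acsbg1, Acsl3, Plpp3 and Mfge8). Of 32 transcription factors of at least 20 CPM 5 qualified (15.6%, Sox9, Id4, Pax6, Dbx2 and Rorb). Of 19 receptors 3 did (15.8%, Grin2c, Ntsr2 and S1pr1), and of 24 genes of growth factor and morphogen signalling 3 (12.5%, Fgfr3, Bmpr1b and Prex2).

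The next lists held at most 2 identity genes each. None of 12 calcium signalling genes of at least 20 CPM was an identity gene, and their list had a median log2 ratio of -1.5. Neither of the 2 gap junction genes at that level qualified, since NN-VLMC held 157 CPM of Gja1 and 234 CPM of Gjb6. Among synapse-acting secreted and adhesion proteins 2 of 29 qualified (6.90%, against 1.90% over all symbols at that level), Thbs4 and Tnc. Of 26 genes of reactive astrocytes only 2 reached a mean of 20 CPM, Gfap and C4b, and only Gfap was an identity gene, at 162 and 125 CPM in B6 and at 93.6 and 101 CPM in D2 against 16.8 CPM in NN-VLMC.

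For the strain comparison, the 2 D2 libraries were compared with the 2 B6 libraries within NN-Astro by edgeR's quasi-likelihood test on the counts of 13777 symbols, with Benjamini-Hochberg adjustment. The smallest p that an exact permutation test of 2 against 2 allows is 0.33, which is why the p-values of this model are given. They measure the spread between pooled replicates. The counts are sums over nuclei, so fewer nuclei with a transcript and less of it per nucleus cannot be told apart. The strains also differ in which symbols were counted, so strain and gene list cannot be told apart either. At an adjusted p under 0.05, 2580 symbols (18.7%) differed, 1123 higher in D2 (8.15%) and 1457 lower (10.6%). DESeq2, which tested 16394 symbols, called 1011 (6.17%).

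Markers of other cell types were counted in the NN-Astro libraries as well, and most of them were higher in B6. The summed CPM of 8 oligodendrocyte markers was 415 and 378 in B6 and 190 and 165 in D2. Inhibitory neuron markers summed to 411 and 422 in B6 and to 223 and 258 in D2, excitatory neuron markers to 263 and 260 in B6 and to 193 and 157 in D2. Microglia markers gave 257 and 242 CPM in B6 and 152 and 146 CPM in D2, and oligodendrocyte precursor markers 122 and 118 CPM against 94.7 and 83.3 CPM, so that in these 5 lists both B6 libraries were above both D2 libraries. Vascular and leptomeningeal markers overlapped, at 109 and 114 CPM in B6 and 134 and 105 CPM in D2. No marker of these 6 lists was at 0 in all libraries. The highest library held at most 11.8% of the sum in the label that the markers belong to (excitatory markers against Exc-DG), and 1.08% to 6.27% for the other 5 lists. In the strain test 6 of 8 oligodendrocyte markers (75.0%) and 3 of 7 excitatory markers (42.9%) were lower in D2. So were 2 of 7 inhibitory (28.6%), 2 of 7 microglia (28.6%) and 1 of 6 precursor markers (16.7%). Higher were 1 precursor (16.7%) and 1 of 4 vascular markers (25.0%). Over all symbols tested 10.6% were lower and 8.15% higher, and in lists this short 1 gene moves a share far. DESeq2 called 3 oligodendrocyte markers, 1 each of the excitatory, inhibitory, microglia and precursor markers, and 0 vascular markers. Without B6 library 2 or without D2 library 3 only 3 of the oligodendrocyte markers were called, and without D2 library 3 only 1 of the excitatory and 1 of the inhibitory markers. The part of these markers in the results below was not tested.

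Of the 138 identity genes, all of which were tested, 42 were higher in D2 (30.4%) and 31 lower (22.5%), while 65 did not pass. Over all symbols of at least 20 CPM the shares were 10.4% higher and 12.5% lower. The identity genes had a median log2 fold change of 0.11, against 0.0086 over symbols at that level. Of the 138, 16 were called with a difference of more than 1 on the log2 scale, against 309 of the 7245 symbols at that level. DESeq2 called 50 of the 138, against 750 of the 7245. The libraries of the strains did not overlap for 100 of the 138, against 4543 of the 7245 and 58.8% of all symbols tested. Genes lower in 1 strain can meet the identity limit through the other, so these counts describe the list and support nothing by themselves: on the B6 libraries alone 140 genes met the limit, 124 of them among the 138, and on the D2 libraries alone 139, with 119 of them among the 138.

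**Figure D3:**
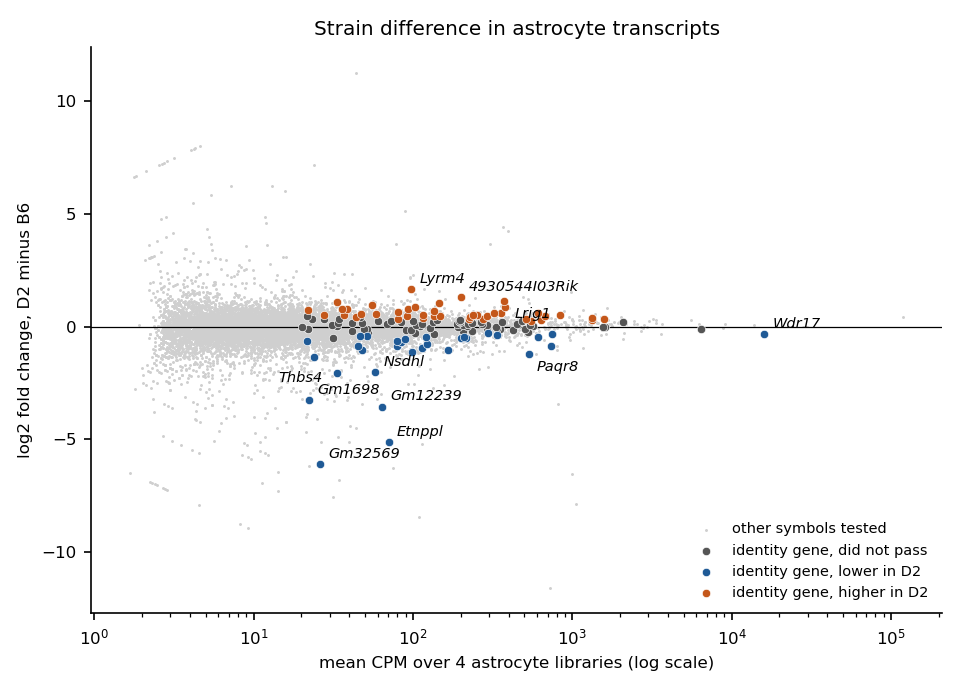
Strain difference in NN-Astro transcripts, as the log2 fold change (D2 minus B6) against the mean CPM over the 4 libraries (log axis). Small grey points are the other symbols tested, dark points identity genes that did not pass, and coloured points identity genes lower (31, blue) or higher (42, orange) in D2 at an adjusted p under 0.05. The 4 lowest identity genes lie between -3.26 and -6.08 on the log2 scale and the highest at 1.68.

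Etnppl had the lowest p of the identity genes and was near the level of other labels in D2. It lies at chr3:130617448-130637521 on the plus strand (GRCm38). Both B6 libraries were far above both D2 libraries, with 403 and 460 counts against 17 and 10, or 130 and 145 CPM against 4.78 and 2.66 CPM. The log2 fold change was -5.11 ± 0.20 (SE), a level 34.6 times higher in B6 (edgeR adjusted p = 5.62e-17). The D2 astrocyte values lay on either side of the highest other label, Exc-Cdh12, at 3.77 CPM.

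The other genes with a wide deficit in D2 included 3 noncoding transcripts. Gm32569 was at 46.6 and 56.9 CPM in B6 and at 0.562 and 0.799 CPM in D2, where it rested on 2 and 3 counts (log2 fold change -6.08 ± 0.33, edgeR adjusted p = 7.19e-14). Gm12239, annotated antisense to Nmur2, was at 109 and 129 CPM in B6 and at 8.71 and 10.4 CPM in D2 (-3.54 ± 0.17). For Gm1698 the values were 44.4 and 37.3 CPM in B6 and 3.37 and 4.53 CPM in D2 (-3.26 ± 0.25). Gm32569 and Gm1698 overlap on their own strand a gene that was counted in D2 only (Gm37403 and Gm45861). Whether reads passed to that gene was not tested, and 8 of the 138 identity genes overlap such a gene.

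Among protein-coding genes lower in D2, Thbs4 encodes a thrombospondin, a secreted family that promotes synapse formation. It was at 50.5 and 58.4 CPM in B6 and at 12.6 and 11.7 CPM in D2 (log2 fold change -2.07 ± 0.18, edgeR adjusted p = 1.07e-09). Nsdhl, a sterol dehydrogenase of cholesterol synthesis on the X chromosome, was at 87.5 and 99.8 CPM in B6 against 19.7 and 24.2 CPM in D2 (-2.0 ± 0.15). Slc25a21, a mitochondrial carrier of oxodicarboxylates, was at 31.8 and 37.9 CPM in B6 against 11 and 15.2 CPM in D2 (-1.32 ± 0.20). Paqr8, a membrane progestin receptor, was at 866 and 649 CPM in B6 against 308 and 310 CPM in D2 (-1.21 ± 0.11). The rule by which these 8 genes were chosen asked for strains that do not overlap.

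The 8 identity genes furthest in the other direction changed less. Lyrm4, which encodes a protein of iron-sulfur cluster assembly, was at 48.2 and 48.6 CPM in B6 and at 164 and 128 CPM in D2 (log2 fold change 1.68 ± 0.13, edgeR adjusted p = 2.22e-10). It overlaps on its strand Tmed10-ps, a symbol counted in D2 only. Lrig1, a membrane protein that restrains growth factor receptors, was at 243 and 247 CPM in B6 and at 521 and 484 CPM in D2 (1.13 ± 0.09). Lgi4, a secreted leucine-rich repeat protein, was at 97.8 and 98.2 CPM in B6 and at 181 and 203 CPM in D2 (1.06 ± 0.11). The noncoding gene 4930544I03Rik was at 104 and 135 CPM in B6 against 262 and 297 CPM in D2 (1.32 ± 0.12), and Ccdc190 at 73.3 and 79.9 CPM against 125 and 137 CPM (0.87 ± 0.12). The remaining 3, Gm41492, Gm47898 and A230009B12Rik, had log2 fold changes of 1.09, 0.98 and 0.87, and the same rule chose them.

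**Figure D4:**
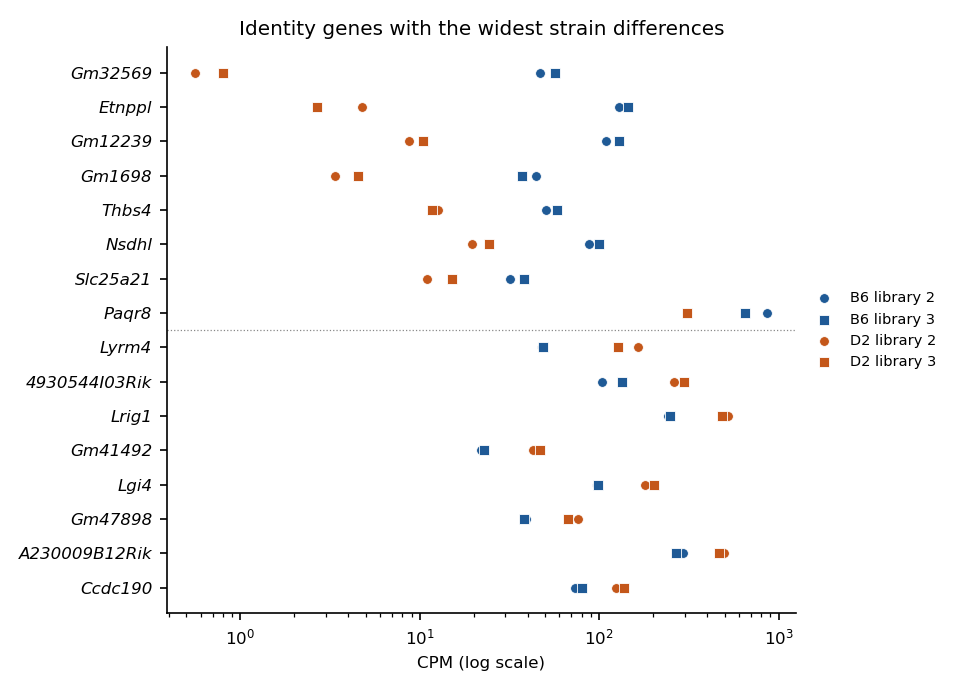
CPM on a log axis in each NN-Astro library for the 8 identity genes furthest lower in D2 (above the dotted line) and the 8 furthest higher (below it). Circles and squares are single libraries (B6 blue, D2 orange). The widest gaps are those of Gm32569 and Etnppl, with D2 libraries at 0.562 to 4.78 CPM and B6 libraries at 46.6 to 145 CPM.

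Other genes with high ratios differed less or did not pass. Grin2c (log2 fold change -0.18), Acsbg1 (0.11) and Fgfr3 (-0.03) did not pass. Wdr17 was lower in D2 by a small step, from 17426 and 19012 CPM to 14201 and 13360 CPM (-0.31 ± 0.08, edgeR adjusted p = 0.00403), with the strains not overlapping, but it did not pass without D2 library 3 (-0.26, adjusted p = 0.139).

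Genes of known astrocyte functions were then counted by list. Their shares called stand beside the 10.4% higher and 12.5% lower over all symbols of at least 20 CPM, and the 8.15% and 10.6% over all symbols tested. A share near those values says nothing particular of a list, and with lists of 33 genes or fewer a few genes move a share far. DESeq2 called fewer, at 6.17% of all symbols it tested. In the lists it called 5 of 13 glutamate and GABA genes, 4 of 17 of potassium, water and pH, and 3 of 16 of glucose and lactate. It called 6 of 24 lipid genes, 9 of 32 transcription factors and 5 of 29 receptors. For growth factors and morphogens the number was 6 of 30, and for synapse-acting proteins 9 of 31.

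Genes of glutamate handling moved in both directions. Of 13 tested, 4 were higher in D2 (30.8%) and 2 lower (15.4%, near the 12.5% at 20 CPM), with a median log2 fold change of 0.11. Without D2 library 3 the number called was 4 in place of 6. Glul, the glutamine synthetase of astrocytes, was at 619 and 561 CPM in B6 and at 311 and 319 CPM in D2 (-0.81 ± 0.09), and Slc7a11, the cystine and glutamate exchanger, at 553 and 463 CPM against 312 and 307 CPM (-0.62 ± 0.10). The glycine transporter gene Slc6a9 was at 11.9 and 11.7 CPM in B6 and at 27.8 and 25.0 CPM in D2 (1.25 ± 0.21). The GABA transporter gene Slc6a11 (0.50), the amino acid transporter gene Slc7a10 (0.53) and the glutamine transporter gene Slc38a3 (0.58) were higher too. Under DESeq2 Slc38a3 did not pass (DESeq2 adjusted p = 0.0996). Slc6a11 and Slc38a3 did not pass without D2 library 3 (0.36 and 0.35, edgeR adjusted p = 0.0933 and 0.215). The glutamate transporter genes Slc1a2 and Slc1a3 did not pass (-0.11 and 0.09), although Slc1a2 did without B6 library 3 (-0.23, adjusted p = 0.000987).

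Genes of coupling and of potassium channels differed in both directions. Gjb6, which encodes connexin 30, was at 149 and 130 CPM in B6 and at 68.0 and 73.0 CPM in D2 (log2 fold change -0.89 ± 0.12, edgeR adjusted p = 2.06e-06), while the other connexin gene tested, Gja1, did not pass. Kcnj10, the main inward rectifier potassium channel of astrocytes, was at 68.5 and 78.0 CPM in B6 and at 115 and 141 CPM in D2 (0.89 ± 0.12), and its partner Kcnj16 was higher as well (0.55 ± 0.13). The anion channel genes Lrrc8a, which serves volume regulation, and Clcn2 were lower in D2 (-1.35 ± 0.21 and -0.50 ± 0.15). Neither Kcnj16 nor Clcn2 was called by DESeq2 (DESeq2 adjusted p = 0.0693 and 0.349). Clcn2 did not pass without B6 library 3, D2 library 2 or D2 library 3 (edgeR adjusted p = 0.112, 0.113 and 0.0552). In all, 5 of 17 genes of potassium, water and pH were higher (29.4%) and 3 lower (17.6%, against 12.5% at 20 CPM), with a median of 0.16. Only 3 were called without D2 library 3 and 4 without D2 library 2, in place of 8.

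Of 15 genes of glucose and lactate 4 were higher in D2 (26.7%) and 2 lower (13.3%, near the 12.5% at 20 CPM), and 3 in place of 6 were called without D2 library 3. Slc2a1, the glucose transporter GLUT1, was at 32.2 and 29.4 CPM in B6 and at 51.4 and 56.4 CPM in D2 (log2 fold change 0.90 ± 0.15), and the hexokinase gene Hk1 was also higher (0.61 ± 0.13). Gbe1, the glycogen branching enzyme, and Aldoc, the aldolase of astrocytes, were lower (-0.73 ± 0.16 and -0.46 ± 0.10), but Aldoc did not pass without D2 library 3 (-0.38, edgeR adjusted p = 0.0914). Gbe1 did not pass under DESeq2 (DESeq2 adjusted p = 0.0963). Lipid genes divided into 4 higher (16.7%) and 5 lower (20.8%) of 24, against 10.4% and 12.5% at 20 CPM. Among those lower were Sqle and Cyp51, enzymes of cholesterol synthesis like Nsdhl (-0.41 and -0.64), the lipoprotein receptor family gene Lrp4 (-0.64) and the acyl-CoA synthetase gene Acsl3, which was at 1020 and 918 CPM in B6 and at 509 and 488 CPM in D2 (-0.87 ± 0.09). Sqle did not pass without B6 library 2 or D2 library 2 (-0.29 and -0.28, edgeR adjusted p = 0.237 and 0.326). Nor did Sqle pass under DESeq2 (DESeq2 adjusted p = 0.427). Acsl3 and the identity gene Utp14b overlap, and their reads may not be separable. Fabp7, the fatty acid binding protein of radial glia, was higher in D2 (0.89 ± 0.14).

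Of 32 transcription factor genes 10 were higher in D2 (31.2%, against 10.4% at 20 CPM) and 2 lower (6.25%, against 12.5%), with a median log2 fold change of 0.21. Without D2 library 3, 7 were higher and 0 lower. Hes1, a target of Notch, was at 44.4 and 50.9 CPM in B6 and at 110 and 95.6 CPM in D2 (1.20 ± 0.13, edgeR adjusted p = 7.84e-08). Sox2 (0.66), Sox9 (0.52), Pax6 (0.47), Tcf7l1 (0.61) and Rorb (0.35) were higher too, and the inhibitors of DNA binding Id2 and Id4 lower (-0.43 and -0.50). Rorb, Id2 and Id4 did not pass without D2 library 3 (edgeR adjusted p = 0.0903, 0.146 and 0.0788), nor Id2 without B6 library 2 (-0.15, adjusted p = 0.569). Id2 was not called by DESeq2 either (DESeq2 adjusted p = 0.323). The astrocyte regulators Nfia and Lhx2 did not pass (0.05 and -0.11).

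Growth factor, morphogen and receptor genes differed in both directions. Fgf2, a fibroblast growth factor, was at 19.0 and 19.6 CPM in B6 and at 4.50 and 2.66 CPM in D2 (log2 fold change -2.34 ± 0.30, edgeR adjusted p = 1.55e-06). The growth factor receptors Ntrk2, which binds brain-derived neurotrophic factor, and Fgfr2 were lower too (-0.60 and -0.52). The Notch ligand gene Jag1 was at 7.08 and 8.84 CPM in B6 and at 22.8 and 22.1 CPM in D2 (1.58 ± 0.24), and the Wnt ligand gene Wnt7a was higher as well (1.10 ± 0.19). Of 29 growth factor and morphogen genes tested 7 were higher (24.1%) and 5 lower (17.2%), against 10.4% and 12.5% at 20 CPM. Of 27 receptors 7 were higher (25.9%), among them the glutamate receptor Grm3 (0.57) and the adrenergic receptor Adra1a (0.90), and 4 lower (14.8%, near the 12.5% at 20 CPM), among them the AMPA receptor subunit Gria1, at 224 and 247 CPM in B6 and 115 and 96.9 CPM in D2 (-1.06 ± 0.11). Without D2 library 3 only 4 of the 11 receptors were called. Neurons express Gria1 as well, and neuron markers were higher in the B6 libraries, as given above. P2ry12, another of the 4 receptors lower in D2, is also in the list of microglia markers. The sum of that list was higher in the B6 libraries too.

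Reactive astrocyte genes that passed the test were lower in D2. They were 5 of the 11 tested (45.5%), against 10.6% lower over all symbols tested. None was called higher by edgeR, and DESeq2 called 2, while 9 had an unadjusted p under 0.05 in either direction, against 4222 of all 13777 symbols. Without B6 library 2 the counts were 1 higher and 3 lower, and without D2 library 2 they were 1 and 5, the gene called higher being Aspg in both. Gfap, the intermediate filament that marks reactive astrocytes, was lower by a small step (log2 fold change -0.47 ± 0.12), and C4b, a complement component, was at 49.5 and 36.0 CPM in B6 and at 14.9 and 14.4 CPM in D2 (-1.45 ± 0.19). C4b has a near-identical paralog, so its counts are uncertain. Ggta1, a galactosyltransferase, Osmr, the receptor of oncostatin M, and S100a10, a calcium-binding protein, had log2 fold changes of -1.38, -1.05 and -2.78, at levels under 20 CPM in every library. Gfap did not pass without B6 library 2 or D2 library 2 (-0.25 and -0.41, edgeR adjusted p = 0.196 and 0.067), nor Osmr without B6 library 2 or D2 library 3 (-0.67 and -0.73, adjusted p = 0.211 and 0.144). Gfap was not called by DESeq2 either (DESeq2 adjusted p = 0.111). Ggta1 was higher in NN-MGC than in NN-Astro, and microglia markers were higher in the B6 libraries. Of 31 synapse-acting proteins 4 were higher (12.9%, near the 10.4% at 20 CPM), among them Tenm4 (0.97), and 6 lower (19.4%, against 12.5%), among them Thbs4, Tenm2 (-0.85) and Nlgn3 (-0.83). Without D2 library 2, 6 in place of 10 were called. Against 8.15% higher and 10.6% lower over all symbols tested, calcium signalling genes gave 3 higher (21.4%) and 4 lower (28.6%) of 14, and radial glia genes 5 higher (38.5%) and 3 lower (23.1%) of 13. Ependymal genes gave 1 of each among 3. With DESeq2 0 calcium genes were called higher and 2 lower of 14, and 1 radial glia gene higher and 2 lower of 16. Without D2 library 3, 4 in place of 7 calcium genes were called.

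In chromatin, start regions of most identity genes that had a start peak were more open in NN-Astro than in the 14 other snATAC-seq labels. NN-VLMC and CR-CR, the highest other labels for 55 and 23 identity genes in snRNA-seq, are not among those 14, so the contrast is against fewer labels than that of transcripts. The other non-neuronal labels were thin, with 97 nuclei in NN-OPC, 136 in NN-ODC and 142 in NN-MGC over all libraries. Of the 134 identity genes with a single annotated entry, 106 had at least 1 peak within 1 kb of the annotated start. The summed start peaks had a median log2 ratio of 0.84 to the highest other label, against -0.17 over 6742 symbols of at least 20 CPM with a start peak. Each NN-Astro library was above every other label for 68 of the 106 (64.2%), against 10.5% of all such symbols, and the ratio was at least 1 for 43 (40.6%) against 2.05%. The snATAC-seq labels were transferred from snRNA-seq, so this too is a description with no test, and 20 of the 106 were below the highest other label.

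Single genes showed how far start peaks and transcripts went together. Acsbg1 had start peaks at 62.7 and 45.3 CPM in B6 and 67.6 and 60.1 CPM in D2, against 10.3 CPM in NN-OPC. Those of Slc7a10 lay at 68.2 to 99.7 CPM against 17.7 CPM, those of Nwd1 at 65.5 to 74.1 CPM against 22.1 CPM and those of Gm13110 at 25.6 to 38.8 CPM against 2.94 CPM. Wdr17 was the reverse case, with 2.06 to 5.70 CPM at its annotated start against 25.8 CPM in Exc-ENT. An intronic peak of Wdr17, which overlaps no exon of the gene in GENCODE vM21, lies at chr8:54791986-54792613, 94885 bases from the annotated start. It was instead at 62.7 and 57.6 CPM in B6 and 69.2 and 77.5 CPM in D2, against 8.09 CPM in NN-OPC.

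**Figure D5:**
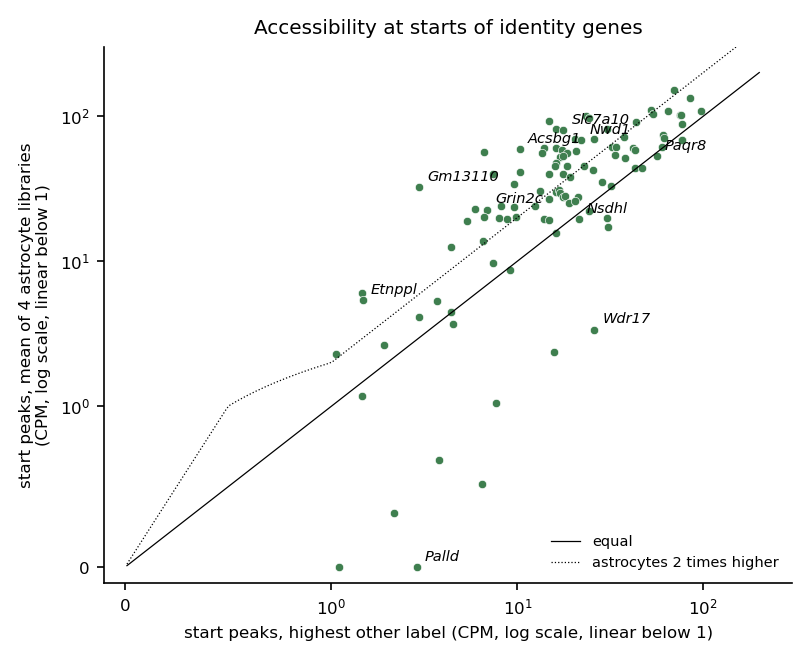
Summed start-peak CPM of the 106 identity genes with a peak within 1 kb of the annotated start, as the mean of the 4 NN-Astro libraries against the highest other label (log axes, linear below 1). The solid line marks equal levels and the dotted line a level 2 times higher in astrocytes. Most genes lie above the solid line, 20 lie below it, and Wdr17 is among those.

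Peaks high in astrocytes were then taken by the limits used for transcripts, a mean of at least 20 CPM and a log2 ratio of at least 2, a rule set after the data had been seen. It gave 424 of 12773 peaks (3.32%), with NN-OPC the highest other label for 332 of them. NN-OPC held only 97 nuclei and 1359571 counts over all libraries, so a low CPM in it rests on few counts. Here too NN-VLMC and CR-CR were not among the labels compared, and without them the transcript limit was met by 216 genes in place of 138. At least 1 such peak overlapped the gene itself for 32 of the 134 identity genes (23.9%), against 2.41% of 7172 symbols of at least 20 CPM. The median gene length was 32.5 kb in the first set and 40.4 kb in the second.

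Sequences are shown for start regions and intronic peaks that carry these patterns. Promoters run from 250 bases before to 50 bases after a RefSeq start and intronic windows are the central 300 bases of a peak, all read 5′ to 3′ from GRCm38.p6, the genome of B6. Acsbg1 and Prdm16 had start peaks above every other label, Gm973 holds a SOX motif at its start, Etnppl had the widest deficit in D2 of the protein-coding identity genes, and the intronic peaks of Wdr17, Etnppl and Lyrm4 were high in astrocytes. Capitals mark the SOX motif AACAAAG or its reverse complement, and a sequence without capitals has no such match.
Acsbg1 promoter, chr9:54661836-54662135, minus strand: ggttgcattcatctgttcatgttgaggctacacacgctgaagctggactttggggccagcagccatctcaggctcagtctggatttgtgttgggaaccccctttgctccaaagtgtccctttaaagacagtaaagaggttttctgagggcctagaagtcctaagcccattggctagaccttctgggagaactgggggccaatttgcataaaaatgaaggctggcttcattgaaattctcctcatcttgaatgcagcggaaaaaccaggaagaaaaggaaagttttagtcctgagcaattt
Prdm16 promoter, chr4:154636824-154637123, minus strand: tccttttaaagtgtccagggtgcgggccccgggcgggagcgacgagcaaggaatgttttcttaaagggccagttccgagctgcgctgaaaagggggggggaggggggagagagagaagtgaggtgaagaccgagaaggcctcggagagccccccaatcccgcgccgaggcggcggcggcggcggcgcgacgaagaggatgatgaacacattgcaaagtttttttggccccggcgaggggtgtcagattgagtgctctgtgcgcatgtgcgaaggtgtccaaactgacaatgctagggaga
Gm973 promoter, chr1:59516014-59516313, plus strand: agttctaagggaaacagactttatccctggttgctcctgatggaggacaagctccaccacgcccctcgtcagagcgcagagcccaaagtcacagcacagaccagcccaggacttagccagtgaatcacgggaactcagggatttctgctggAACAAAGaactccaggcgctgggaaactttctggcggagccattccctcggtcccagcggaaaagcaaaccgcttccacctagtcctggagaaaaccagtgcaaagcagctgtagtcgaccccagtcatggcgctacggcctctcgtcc
Etnppl promoter, chr3:130617325-130617624, plus strand: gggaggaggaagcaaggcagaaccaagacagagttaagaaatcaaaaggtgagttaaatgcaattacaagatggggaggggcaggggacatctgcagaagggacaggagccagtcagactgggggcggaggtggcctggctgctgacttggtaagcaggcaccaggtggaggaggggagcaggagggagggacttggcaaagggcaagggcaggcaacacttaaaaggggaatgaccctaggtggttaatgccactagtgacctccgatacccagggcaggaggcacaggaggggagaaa
Etnppl intronic peak, chr3:130633865-130634164, plus strand: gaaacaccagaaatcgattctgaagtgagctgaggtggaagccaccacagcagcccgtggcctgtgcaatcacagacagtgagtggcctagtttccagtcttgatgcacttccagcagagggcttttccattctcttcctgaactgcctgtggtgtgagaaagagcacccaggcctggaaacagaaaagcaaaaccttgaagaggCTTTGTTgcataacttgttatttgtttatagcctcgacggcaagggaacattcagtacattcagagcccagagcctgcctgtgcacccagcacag
Wdr17 intronic peak, chr8:54792150-54792449, plus strand: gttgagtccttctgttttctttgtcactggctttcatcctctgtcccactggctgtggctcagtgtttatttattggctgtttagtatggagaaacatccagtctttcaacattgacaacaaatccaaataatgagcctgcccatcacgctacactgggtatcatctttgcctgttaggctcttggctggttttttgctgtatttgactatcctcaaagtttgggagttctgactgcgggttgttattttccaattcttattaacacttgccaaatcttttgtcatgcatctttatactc
Lyrm4 intronic peak, chr13:35980345-35980644, plus strand: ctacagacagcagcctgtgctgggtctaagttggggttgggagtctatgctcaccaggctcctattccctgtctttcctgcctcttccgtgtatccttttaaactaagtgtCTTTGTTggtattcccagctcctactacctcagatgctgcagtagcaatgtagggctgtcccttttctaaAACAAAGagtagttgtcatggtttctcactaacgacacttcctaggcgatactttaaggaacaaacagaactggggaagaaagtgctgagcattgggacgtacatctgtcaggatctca

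The shares of windows with a motif were counted over whole sets, and all 5 motifs searched were chosen after the data had been seen. The SOX motif AACAAAG was in 10.8% of the 424 astrocyte-high windows against 6.25% of all tested peak windows, and in 10.9% of 137 promoters of 103 identity genes against 5.85% of all 32851 promoters. The LHX motif TAATTA was in 13.0% of astrocyte-high windows against 5.86%, but in 3.65% of identity promoters against 5.29%. The NFI motif TGGCNNNNNGCCA was in 1.65% against 1.42% of windows and in none of the identity promoters against 0.807%. It was added after its longer form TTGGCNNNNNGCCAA had matched 0 of the 424 windows, against 0.0457% of all. The RFX motif GTTNCCNNGGNAAC was in 0.236% against 0.430% of windows and in none of the identity promoters against 0.451%. Windows of peaks away from gene starts numbered 390 among the astrocyte-high peaks and 27700 among all. Between these the contrasts were narrower for SOX (11.03% against 7.45%) and LHX (13.08% against 7.55%). That of the shorter NFI motif was reversed (1.28% against 1.73%), and RFX was in 0.256% against 0.451%. Windows were 300 bases, both strands were read, and the median GC content was 50.3% in astrocyte-high windows and 53.0% in all. A match is a run of letters and not a shown site.

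Few peaks were called as different between strains, with 33 to 65 nuclei per library. A peak that was not called is not thereby shown to be equal. Of 39351 peaks tested by edgeR 78 were called (0.198%), 39 higher in D2 (0.0991%) and 39 lower (0.0991%). Both D2 libraries were at 0 for 17 of them and both B6 libraries for 8. Among 105 start peaks of identity genes edgeR and DESeq2 called 0, and 10 had an unadjusted p under 0.05, against 2491 of all 39351 peaks (6.33%). Among 451 peaks in or within 1 kb of identity genes both tools again called 0, with 38 at an unadjusted p under 0.05. Of the 424 astrocyte-high peaks edgeR called 1 and DESeq2 0, and 35 had an unadjusted p under 0.05.

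Peaks at Etnppl were not called between strains. Its start peak rested on 2 and 5 counts in B6 and on 1 and 3 counts in D2, or 5.70, 10.3, 1.54 and 4.01 CPM, against 1.47 CPM in NN-OPC. The intronic peak shown above, chr3:130633669-130634359, was at 54.1 and 53.5 CPM in B6 and at 30.7 and 44.1 CPM in D2, against 5.88 CPM in NN-OPC. Both D2 libraries were below both B6 libraries there, but the difference did not pass (log2 fold change -0.47 ± 0.31, edgeR adjusted p = 0.882). For Lyrm4 the intronic peak overlapped between strains, at 39.9 and 39.1 CPM in B6 and 33.8 and 42.8 CPM in D2 (log2 fold change 0.0041 ± 0.33).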

How the data were processed

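To make the tables, the authors ran Cell Ranger 6.0.2 on snRNA-seq reads, with intronic reads kept, and Cell Ranger ATAC 2.0.0 on snATAC-seq reads. The reference was mm10 for B6, and for D2 the same build with its SNP positions exchanged. The GENCODE release is not given in the sources used here. They filtered nuclei, removed doublets with DoubletFinder, clustered with Seurat 4.0.5, and merged snATAC-seq peaks that MACS had found in single samples. The values are raw counts that the authors deposited as sums over the nuclei of a label in each library, not normalized. The deposited numbers of nuclei are given as the authors' own. Library numbers differ between tables (2 and 3) and labels, so columns were placed in a strain only.

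Of 33902 symbols, 24691 had counts in both strains, 8204 in D2 only and 960 in B6 only. The gene lists behind the counts therefore appear to have differed between strains, which was not tested. A strain difference cannot be told apart from a difference between those lists. Symbols of 1 strain held 1.16% to 1.20% of B6 and 3.98% to 4.17% of D2 astrocyte counts and were left out of the main comparison. Other labels were summed over libraries. CPM used the library total. Strain tests used edgeR 4.0.16 (R 4.3.3) with TMM normalization, filterByExpr for transcripts, at least 10 counts for peaks, no covariates, and Benjamini-Hochberg adjustment over all features, with DESeq2 1.42.0 as an alternative. Transcripts had a biological coefficient of variation of 0.0725, peaks one of 0.0687. SE was derived from each fold change with its F statistic. The fits were tested on simulated data with known changes. Named genes were the 20 identity genes with the highest ratio, the 8 furthest in each direction among those called with strains not overlapping, and members of the lists. The members, lists and tests were chosen with earlier results of these data known. Gene positions were those of GENCODE vM21, and promoters and peak windows from RefSeq tables and sequence of GRCm38.p6. Peak coordinates are printed as deposited, and whether they count from 0 or 1 is not stated. Other tools were matplotlib 3.10.9, scipy 1.17.1, pandas 2.3.3, numpy 2.4.6 and Python 3.11.15.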

Additional observations from a re-analysis of the deposited data

How the results depend on the processing

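With the mean over the other labels in place of the highest, 567 genes met the identity limit, and 216 without NN-VLMC and CR-CR, an alternative added after seeing the data. Under the other alternatives, including other pseudocounts, CPM minimums, TMM library sizes and NN-VLMC left out, the number was 106 to 201, and leaving out each library gave 138 to 142.

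For strain differences in transcripts DESeq2 called 1011 in place of 2580, and leaving out each library gave 1651 (without D2 library 3) to 2327. RLE normalization gave 2552, at least 10 counts 2517, no filter beyond 1 count 1770, and all symbols, also those of 1 strain, 3858 (2135 higher and 1723 lower in D2). Identity genes called numbered 50 to 77 over all alternatives, with the lowest under DESeq2 and without D2 library 3, and 60 of 115 when those overlapping another gene on their strand were left out. The 16 identity genes furthest in either direction, chosen for being called with strains apart, stayed called in all 160 values under 10 alternatives. Of 101 other genes that were called, either members of the astrocyte lists or among the 20 highest ratios, 37 stayed called throughout and 64 did not pass under at least 1 alternative, 44 of them under DESeq2 and none with a change of direction. Leaving out each library changed the sign of genes that were not called, with log2 fold changes of -0.28 to 0.13 for Gm13110, -0.13 to 0.074 for Fgfr3, -0.051 to 0.40 for Gja1, -0.23 to 0.028 for Slc1a2 and -0.25 to 0.051 for Lhx2.

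For peaks DESeq2 called 6 in place of 78, leaving out each library gave 27 (without B6 library 3) to 54, with 36 without D2 library 2 and 41 without D2 library 3, at least 20 counts 56, and 53 remained in the count without peaks at 0 in a strain. DESeq2 tested 193274 peaks where edgeR tested 39351. The cause of the changes between settings was not tested. The settings that left out NN-VLMC, genes overlapping on their strand and peaks at 0 in a strain were also added after seeing the data.

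Deviations from the strain mean correlated at -0.029 between B6 and D2 libraries of the same number. With 2 libraries per strain this is a single value over 12236 symbols. It cannot show whether libraries of the same number share a deviation in only some genes. With the library number as a block 2800 transcripts, 75 identity genes (72 shared with the 73) and 69 peaks were called. Accessibility rested on 33 to 65 nuclei per library.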
